A study of Mus musculus with 5 samples.

Results

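Leukaemic cells with low Cpa3 are cells of a transplanted mouse acute myeloid leukaemia that carried transcripts of the IgE receptor but little transcript of carboxypeptidase A3 (Cpa3), a protease of mast cell granules. A cell barcode entered if it had at least 500 genes, at least 1000 unique molecular identifiers (UMIs, single captured transcripts) and at most 10% of its UMIs from mitochondrial genes. It had to reach 5 UMIs per 10000 over Cpa3, Ms4a2 and Fcer1a together, with fewer than 15 from Cpa3, and to hold at least 2 UMIs over the clone genes Tnni3, Gmpr and Bex4. It also had to stay under 5 per 10000 for Mcpt8 with Prss34, genes of basophils, and for Hbb-y with Hba-x, the embryonic globins. By this rule 15005 of 32240 kept cells were low-Cpa3 cells. The 5980 cells that met the same rule with Cpa3 at 15 per 10000 or more are called strong-Cpa3 cells.

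The cells came from C57BL/6 mice given CMM leukaemia cells, which are marked with green fluorescent protein (GFP), by intravenous injection. Dosing began once GFP-marked cells made up about 1% of blood cells, and 3 intravenous doses followed on alternate days. Decoy mice received CpG-STAT3dODN, an oligonucleotide that joins a CpG part, a ligand of Toll-like receptor 9 (TLR9), to a decoy for the transcription factor STAT3, and PBS mice received PBS. Cells positive for GFP and c-Kit were sorted from the spleens for 3' droplet sequencing, giving 4 Decoy libraries (Decoy 2, Decoy 3, Decoy 5 and Decoy 6) and 1 PBS library. All mice of both groups carried the same transplanted leukaemia, and the sort still held cells without its genes. Other oligonucleotides were not analysed here, so the CpG part and the STAT3 decoy part cannot be told apart. Whether every library is a different mouse is not stated in the labels, and p-values then describe only how far these libraries spread, which may be technical.

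Mast cells and basophils bind IgE through a receptor whose chains are encoded by Fcer1a, Ms4a2 and Fcer1g. Maturing mast cells depend on the receptor tyrosine kinase Kit and on the transcription factors Gata2 and Mitf, and they fill their granules with histamine, proteases such as Cpa3 and the proteoglycan serglycin (Srgn). Their precursors share Gata1 and Gata2 with the red cell and platelet lineages, where Car1, Klf1 and Epor mark the red cell branch.

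Low-Cpa3 cells were 3571 of 6252 kept cells in Decoy 2, 259 of 1941 in Decoy 3, 0 of 3607 in Decoy 5, 852 of 3221 in Decoy 6 and 10323 of 17219 in PBS. The count of 0 in Decoy 5 allows a share of up to 0.0832% of its kept cells, and Decoy 5 enters no comparison of levels. In the library labelled Decoy 5, Xist, the RNA made from the inactive X chromosome of female cells, had a UMI in 0.905% of the 221 cells that met the clone rule but not the mast cell rule and in 0.118% of the other 3386, while Y-linked genes had one in 95.9% and 74.3% of them. The 5 libraries held between 56490098 and 579333323 UMIs. The median low-Cpa3 cell held 40738 UMIs, 36131 UMIs and 32450.5 UMIs in Decoy 2, Decoy 3 and Decoy 6, against 35596 UMIs in PBS. Kept cells of any 2 libraries shared few barcodes, and the most shared among low-Cpa3 cells was 9, between PBS and Decoy 2.

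Genes that the rule did not use set the leukaemic cells, low-Cpa3 cells among them, apart from the other kept cells of the same libraries. Other kept cells are here those that lacked the clone genes or reached the basophil limit; a further 3256 cells had the clone genes but mast cell genes under the limit and are counted apart. Mpped2, given as a marker of these cells, had 258, 253 and 239.8 UPM in Decoy 2, Decoy 3 and Decoy 6, against 268 in PBS, where UPM stands for UMIs per 1000000 UMIs of the class. In the other kept cells it had between 0.0590 and 6.21 UPM, so the levels did not overlap. Xist had a UMI in the low-Cpa3 cells at a share of 99.0%, 98.1% and 99.8% in Decoy 2, Decoy 3 and Decoy 6, against 98.8% in PBS. The share with a UMI of the Y-linked genes was 1.62%, 8.49% and 7.04% in Decoy 2, Decoy 3 and Decoy 6, against 1.70% in PBS, whereas 47.8% to 75.5% of the other kept cells had one. Decoy 3 and Decoy 6 had the higher Y-linked shares among low-Cpa3 cells. Strong-Cpa3 cells shared these traits, with an Xist UMI in 98.9% to 100% of cells and Mpped2 at 250.5 ± 8.93 CPM in low-Cpa3 and 238 ± 7.70 CPM in strong-Cpa3 cells (SD, n = 4 each; log2 difference 0.076 ± 0.024, adjusted p = 0.026 by edgeR's quasi-likelihood test). In the cells with mast cell genes under the limit, Xist had a UMI in 84.5%, 41.4% and 60.2% of cells in Decoy 2, Decoy 3 and Decoy 6, against 84.6% in PBS.

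Markers of mast cells were present in the low-Cpa3 cells only in part. Summed over the 34 mast cell genes in the files that the rule did not use, the level was 3740.4, 4461 and 4410.5 UPM in Decoy 2, Decoy 3 and Decoy 6, against 3729.5 in PBS. Srgn, which other blood cells express too, was the largest of them with 1646, 1800.1 and 1843 UPM in Decoy 2, Decoy 3 and Decoy 6, against 1668 in PBS. Fcer1a, which chose the cells, had 695, 695 and 757 UPM in Decoy 2, Decoy 3 and Decoy 6, against 634 in PBS. The tryptase genes Tpsb2 and Tpsab1 and the receptor gene Mrgprb1, markers of mature connective tissue mast cells, were at 0 in all 4 libraries, and the chymase gene Cma1 was at or near 0. Kit, whose protein the cells were sorted for, had 38.9, 29.98 and 27.8 UPM in Decoy 2, Decoy 3 and Decoy 6, against 37.4 in PBS. Cd34, a marker of stem and progenitor cells, had 0.357, 0.4997 and 0.613 UPM in Decoy 2, Decoy 3 and Decoy 6, against 0.422 in PBS.

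Transcripts of other blood cells were also counted in low-Cpa3 barcodes, and more of them in the Decoy libraries. The share of low-Cpa3 cells with at least 3 UMIs over a list of genes of other lineages was 18.1%, 25.1% and 23.6% in Decoy 2, Decoy 3 and Decoy 6, against 9.13% in PBS. The 9 B cell markers summed to 64.0, 3466 and 1351 UPM in Decoy 2, Decoy 3 and Decoy 6, against 72.4 in PBS. The 9 neutrophil markers summed to 501, 800.4 and 2355 UPM in Decoy 2, Decoy 3 and Decoy 6, against 146 in PBS, and the 10 macrophage and monocyte markers to 92.7, 770.0 and 539 UPM in Decoy 2, Decoy 3 and Decoy 6, against 23.2 in PBS. No B cell, neutrophil or macrophage marker was at 0 in any of these libraries. The 8 T cell markers summed to 7.33, 19.7 and 54.9 UPM in Decoy 2, Decoy 3 and Decoy 6, against 3.05 in PBS, and the 8 MHC class II genes to 63.4, 752 and 516 UPM in Decoy 2, Decoy 3 and Decoy 6, against 34.4 in PBS. Decoy 3 and Decoy 6 stood above PBS in all of these sums, and Decoy 2 stood below PBS in the B cell sum. Of the B cell markers, Igkc had 11449 of its 25701 PBS UMIs in 1 low-Cpa3 cell. An Igkc UMI was found in 61.3% of low-Cpa3 cells in Decoy 2, against 11.7% in PBS.

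**Figure D1:**
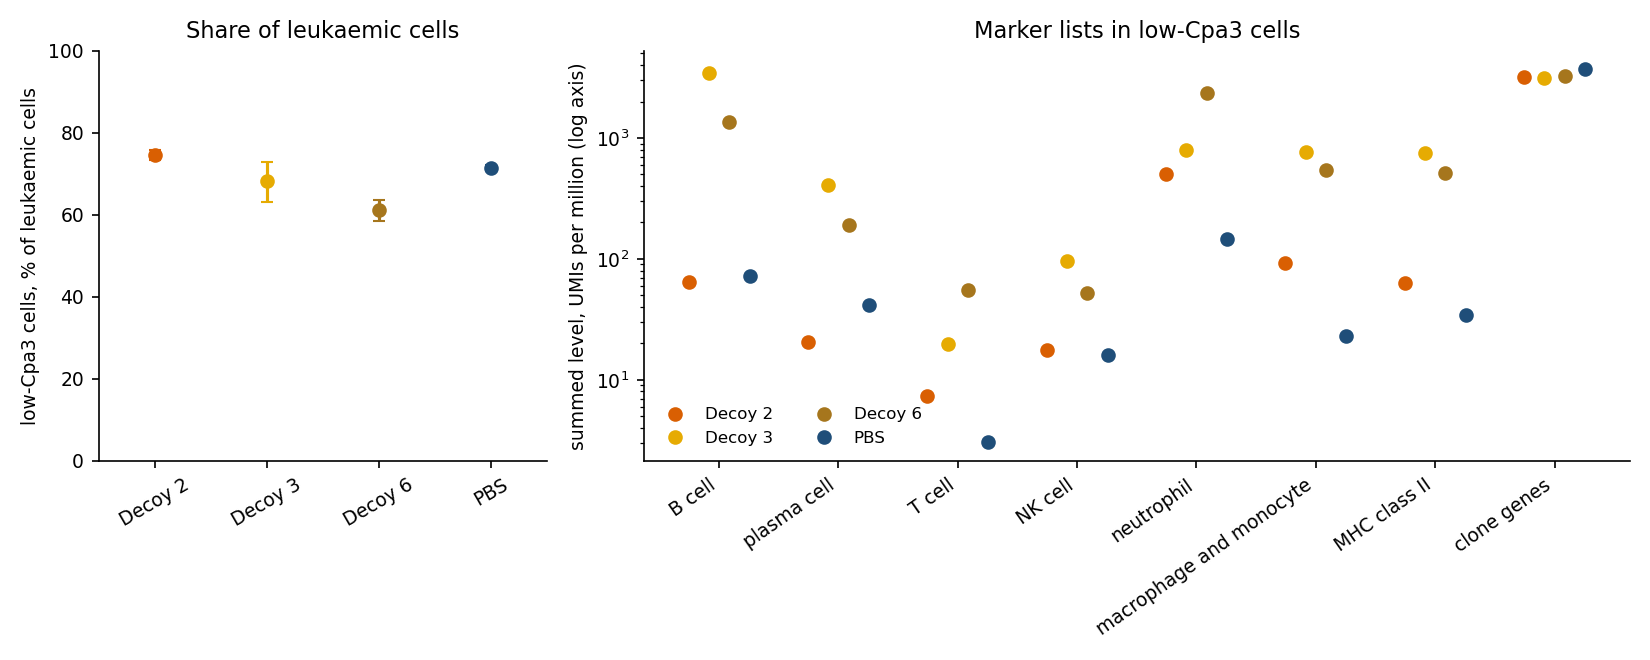
Left, low-Cpa3 cells as a percentage of leukaemic cells in each library, with 95% Clopper-Pearson intervals; Decoy 5 had no leukaemic cell. Right, levels of 7 marker lists of other cells and of the clone genes in low-Cpa3 cells, in UPM on a log axis, 1 point per library. The clone genes lie close together in all 4 libraries, while B cell, neutrophil and macrophage markers are highest in Decoy 3 or Decoy 6. Only 3 of the 6 clone genes summed here were not used by the rule, so their closeness is partly set by the choice of cells.

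Low-Cpa3 cells ranged from no Cpa3 UMI up to the limit. Its median in low-Cpa3 cells was 3.11, 3.57 and 4.20 UMIs per 10000 in Decoy 2, Decoy 3 and Decoy 6, against 3.80 in PBS, and no Cpa3 UMI was found in 4.23%, 6.56% and 4.81% of the Decoy cells, against 2.45% of the PBS cells. In PBS, the 742 cells just inside the limit, at 12 to 15 UMIs per 10000, had 54.3 UPM of Kit and 530.3 of Car1, and the 568 cells just outside, at 15 to 18, had 65.3 of Kit and 558 of Car1. In Decoy 2, the 239 cells just inside had 58.5 UPM of Kit, and the 148 just outside had 60.3. The cells just inside and just outside the limit thus stood close to each other in these values of PBS and Decoy 2. Decoy 3 held few such cells and differed more. Its 23 cells just inside had 31.7 UPM of Kit and 496 of Car1, and its 17 just outside had 45.1 and 401. In Decoy 6, the 81 cells just inside had 34.7 of Kit and 367 of Car1, and the 68 just outside had 33.1 and 308.

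Ordered by Cpa3, the leukaemic cells changed in mast cell genes, cell cycle genes and the genes Car1 and Tfrc together. Kit in PBS had 30.04 UPM in the cells with under 1 Cpa3 UMI per 10000 and 272 in those with 50 or more, and Decoy 2 had 34.1 and 263 in the same bins. Hdc, which makes histamine, had 66.5 UPM in the cells with under 1 Cpa3 UMI per 10000 and 252 in those with 50 or more in PBS, and Slc18a2, which loads histamine into granules, had 106 and 467. Car1, a carbonic anhydrase of red cell precursors, ran the other way, with 759.9 and 256, as did Tfrc, the transferrin receptor, with 104 and 16.8. These 2 genes do not stand for all red cell genes. Of 20 counted between the classes, 11 were higher and 5 lower in low-Cpa3 than in strong-Cpa3 cells. Over all genes counted between the classes, 28.9% were higher and 33.2% lower. Mki67, a marker of proliferating cells, had 465 UPM in the cells with under 1 Cpa3 UMI per 10000 and 62.8 in those with 50 or more in PBS and 424 and 38.1 in Decoy 6. Gata1 differed little between the same bins of PBS, with 161 and 148. The median UMIs of the PBS cells ran from 36943 in the lowest bin to 14315 in the highest, so depth moved with Cpa3.

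**Figure D2:**
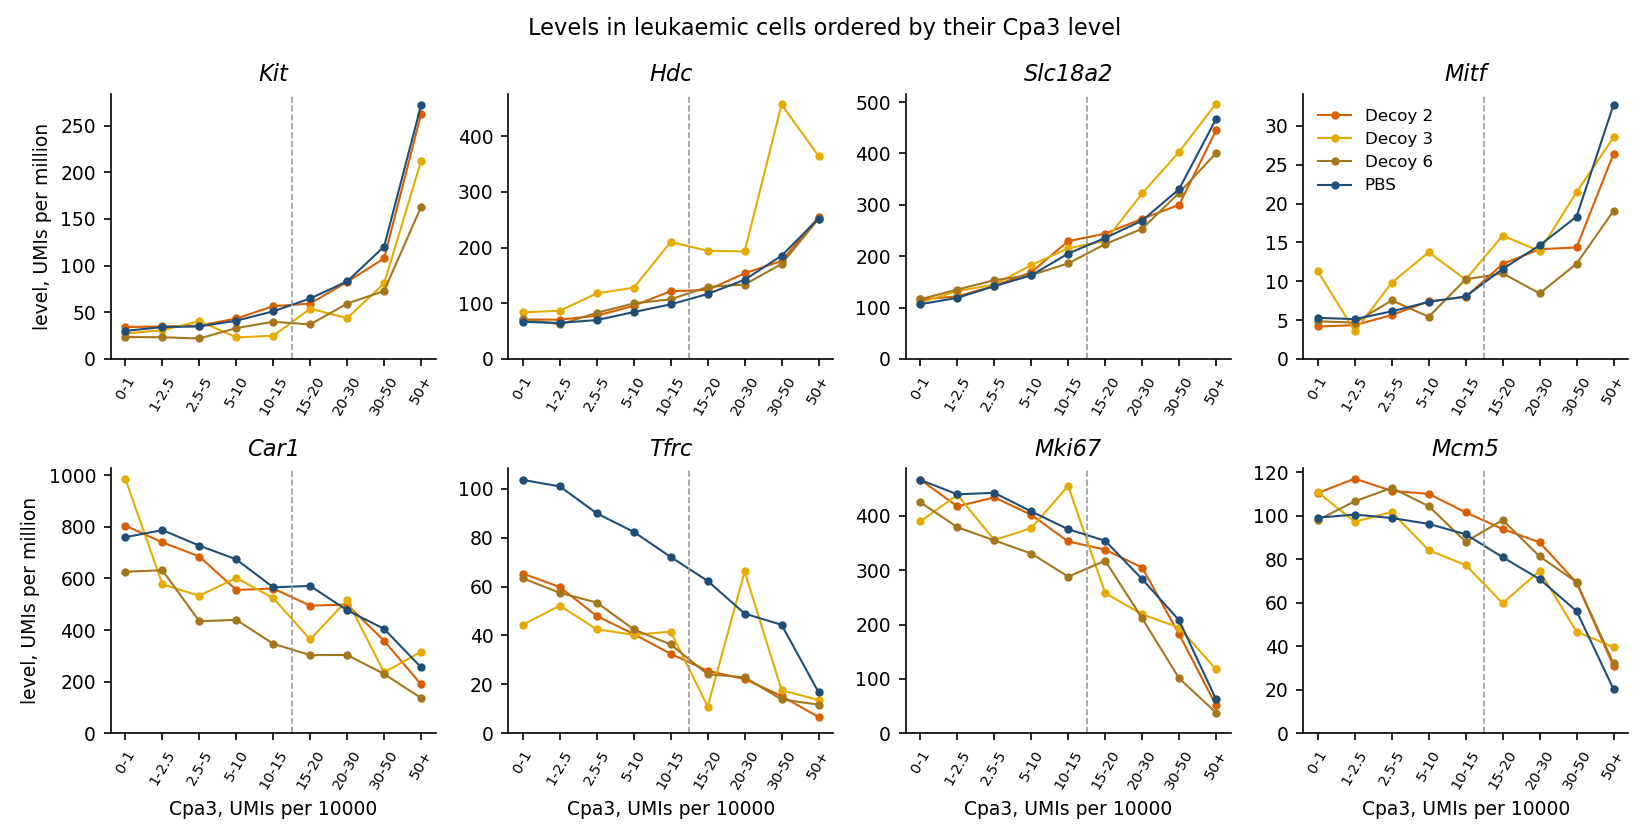
Levels of 8 genes, in UPM, in low-Cpa3 and strong-Cpa3 cells grouped by their Cpa3 UMIs per 10000, 1 line per library; the dashed line marks the limit of 15. Kit, Hdc, Slc18a2 and Mitf climb with Cpa3 and Car1, Tfrc, Mki67 and Mcm5 decline, in Decoy 2, Decoy 3, Decoy 6 and PBS alike. In PBS and Decoy 2, the libraries with most cells, they do so without a step at the limit.

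Set against strong-Cpa3 cells of the same libraries, low-Cpa3 cells carried fewer mast cell transcripts and more transcripts of cell division, and 11 of 20 red cell genes were higher in them. UMIs were summed per library and class and tested with edgeR's quasi-likelihood test with the library as a block and Benjamini-Hochberg adjustment over all genes; levels are CPM, counts per 1000000 scaled between the sums. Of 12352 genes counted, 3569 (28.9%) were higher and 4101 (33.2%) lower in low-Cpa3 cells at an adjusted p under 0.05, 62.1% in all, so being called was common and the sizes carry more than the calls. A log2 difference of at least 1 was reached by 100 higher and 650 lower genes. The split was made by Cpa3 in these same cells, and the rule's genes stayed in the fit but were never counted or called. Low-Cpa3 cells held more UMIs per cell, 40738, 36131, 32450.5 and 35596 at the median in Decoy 2, Decoy 3, Decoy 6 and PBS, against 25325, 25588, 22620 and 20302 in strong-Cpa3 cells.

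Mast cell genes were lower almost throughout. Of 26 counted, 22 were lower and 0 higher, with a median log2 difference of -1.18 beside -0.035 for all genes. Kit had 39.0, 29.4, 27.7 and 35.8 CPM in the low-Cpa3 cells of Decoy 2, Decoy 3, Decoy 6 and PBS, against 133, 96.8, 89.5 and 126 CPM in their strong-Cpa3 cells (log2 difference -1.75 ± 0.036, adjusted p = 7.6e-08). No low-Cpa3 value reached the lowest strong-Cpa3 value. Gata2 averaged 28.5 ± 1.93 CPM in low-Cpa3 and 68.0 ± 3.74 CPM in strong-Cpa3 cells (SD, n = 4 each; log2 difference -1.27 ± 0.044, adjusted p = 5.5e-07), and Mitf averaged 6.85 ± 1.73 CPM in low-Cpa3 and 17.2 ± 2.83 CPM in strong-Cpa3 cells (log2 difference -1.45 ± 0.10, adjusted p = 6.9e-06). Hdc averaged 89.2 ± 19.7 CPM in low-Cpa3 and 208 ± 62.6 CPM in strong-Cpa3 cells (log2 difference -1.20 ± 0.042, adjusted p = 5.5e-07). Among receptors, Il1rl1, which binds the alarmin IL-33, averaged 453 ± 60.1 CPM in low-Cpa3 and 985 ± 108 CPM in strong-Cpa3 cells (log2 difference -1.12 ± 0.025, adjusted p = 9.3e-08), and the log2 differences were -1.43 for Csf2rb2, the signalling chain of the mouse IL-3 receptor, and -1.51 for Cd200r3. Of 8 basophil genes counted, 7 were lower and 0 higher, with a median of -1.39.

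Among genes with a mean of at least 20 CPM, the largest fall was in Gzmb, the serine protease granzyme B. It had 3.15, 4.21, 11.3 and 1.69 CPM in the low-Cpa3 cells of Decoy 2, Decoy 3, Decoy 6 and PBS, against 87.5, 60.8, 60.9 and 63.2 CPM in their strong-Cpa3 cells (log2 difference -4.27 ± 0.43, adjusted p = 5.1e-05). Lat2, an adaptor that works downstream of the IgE receptor, averaged 6.60 ± 3.82 CPM in low-Cpa3 and 74.8 ± 16.2 CPM in strong-Cpa3 cells (log2 difference -3.92 ± 0.25, adjusted p = 4.5e-06). Furin, a protease that processes precursor proteins, averaged 15.1 ± 7.67 CPM in low-Cpa3 and 148 ± 89.2 CPM in strong-Cpa3 cells and varied widely between libraries (log2 difference -3.23 ± 0.071, adjusted p = 9.0e-08). Lilrb4a, an inhibitory receptor, Fes, a tyrosine kinase, and Ltb, which encodes lymphotoxin beta, fell by log2 3.20, 2.80 and 2.76, and Scin and Rgs1, an actin-severing protein and a regulator of G protein signalling, fell by 2.67 and 2.53. Each of these genes was lower in the low-Cpa3 cells of all 4 libraries, as the ranking that picked the largest falls required. Increases at that level were smaller: C2cd4a, Dnph1, a nucleotide hydrolase, Rcvrn and Bub1, a kinase of the mitotic checkpoint, were higher by log2 1.65, 1.25, 1.25 and 1.12. Below it, Ctsg, Mpo, Elane and Prtn3, genes of the granules of neutrophil precursors, were higher by log2 3.42, 3.26, 3.12 and 2.25. Without the cells with other-lineage transcripts, for which Mpo and Elane are markers, Ctsg differed by -0.71 and Prtn3 by -0.018, and neither passed the threshold (adjusted p = 0.0504 and 0.93).

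Platelet and progenitor genes moved mostly with the mast cell genes. Of 12 megakaryocyte genes counted, 9 were lower and 1 higher, among them the integrin chains Itgb3 (log2 difference -1.68) and Itga2b (-1.53). Of 26 stem cell and leukaemia genes, 17 were lower and 2 higher, with Runx1, the partner of the core binding factor beta chain, at -0.59 and Ikzf2 at -0.77. Red cell genes split. Of 20 counted, 11 were higher and 5 lower: Car1 had 687, 621, 493 and 682 CPM in the low-Cpa3 cells of Decoy 2, Decoy 3, Decoy 6 and PBS, against 401, 370.1, 249 and 429.5 CPM in their strong-Cpa3 cells (log2 difference 0.79 ± 0.047, adjusted p = 2.9e-06), and Car2 differed by 0.72, whereas the globin gene Hbb-bt and the transcription factor gene Nfe2 were lower, at -1.25 and -1.45. Car1 was higher in the low-Cpa3 cells of each library, but their lowest value lay close to the highest value of strong-Cpa3 cells. Gata1, the shared lineage factor, did not pass the threshold (log2 difference -0.031 ± 0.048, adjusted p = 0.6). Spi1, a transcription factor of myeloid cells, differed by -0.32, Dnmt1, the maintenance DNA methyltransferase, by 0.39 and Myc by 0.17.

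Of 20 iron and haem genes, a list that shares at least Tfrc with the red cell list, 9 were higher and 3 lower. Tfrc, which imports iron, had 51.5, 43.5, 50.5 and 86.4 CPM in the low-Cpa3 cells of Decoy 2, Decoy 3, Decoy 6 and PBS, against 18.1, 29.0, 18.6 and 43.6 CPM in their strong-Cpa3 cells (log2 difference 1.19 ± 0.12, adjusted p = 5.1e-05). Cpox and Alad, enzymes of haem synthesis, were higher by log2 0.87 and 0.71, and Ftl1, the ferritin light chain, was lower, at -0.73.

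Cell cycle genes were higher as whole lists. All 30 G2 and M phase genes counted were higher, with a median log2 difference of 0.89, and 29 of 30 S phase genes were higher, with a median of 0.59. Ube2c, which tags mitotic proteins for destruction, averaged 294 ± 23.2 CPM in low-Cpa3 and 149 ± 19.0 CPM in strong-Cpa3 cells (log2 difference 0.98 ± 0.035, adjusted p = 5.6e-07), and Top2a, the topoisomerase of mitotic chromosomes, averaged 371 ± 30.7 CPM in low-Cpa3 and 214 ± 22.3 CPM in strong-Cpa3 cells (log2 difference 0.80 ± 0.025, adjusted p = 3.4e-07). Rrm2, which supplies deoxynucleotides, averaged 123 ± 3.19 CPM in low-Cpa3 and 65.7 ± 5.57 CPM in strong-Cpa3 cells (log2 difference 0.90 ± 0.046, adjusted p = 1.5e-06). Rfc2, a subunit of the clamp loader, was the S phase gene that was lower (-0.61). Of 9 cell cycle inhibitor genes, 8 were lower and 0 higher: Ccng2 averaged 8.28 ± 1.26 CPM in low-Cpa3 and 25.6 ± 2.24 CPM in strong-Cpa3 cells (log2 difference -1.69 ± 0.061, adjusted p = 6.0e-07) and Cdkn1a, the inhibitor p21, averaged 107 ± 5.90 CPM in low-Cpa3 and 183 ± 7.09 CPM in strong-Cpa3 cells (log2 difference -0.77 ± 0.038, adjusted p = 1.3e-06). Of 22 genes of the p53 response and of apoptosis, which include Cdkn1a, 14 were lower and 1 higher, with Trp53inp1 at -1.85 and Bbc3 at -1.37.

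In the stress response list, 9 of 18 genes were higher and 4 lower. Asns, which makes asparagine, had 118, 113, 96.2 and 120.1 CPM in the low-Cpa3 cells of Decoy 2, Decoy 3, Decoy 6 and PBS, against 45.6, 44.1, 44.0 and 55.8 CPM in their strong-Cpa3 cells (log2 difference 1.23 ± 0.053, adjusted p = 8.5e-07), and its groups did not overlap. Mthfd2, an enzyme of mitochondrial folate metabolism, averaged 116 ± 5.44 CPM in low-Cpa3 and 49.8 ± 3.77 CPM in strong-Cpa3 cells (log2 difference 1.23 ± 0.051, adjusted p = 7.6e-07), and the serine synthesis enzymes Psat1 and Phgdh were higher by log2 0.87 and 0.73. Trib3, a target of the transcription factor ATF4, had 6.64, 7.05, 4.99 and 5.36 CPM in the low-Cpa3 cells of Decoy 2, Decoy 3, Decoy 6 and PBS, against 2.24, 3.02, 2.74 and 2.96 CPM in their strong-Cpa3 cells (log2 difference 1.10 ± 0.14, adjusted p = 2.3e-04). The promoters of Asns and Trib3 are shown because, with that of Chac1, they held the motif TGATGNAA, a core sequence bound by ATF4 with its C/EBP partners. It was searched on both strands in the 300 bases around each RefSeq start site (GRCm38.p6) and was found in 3 of the 9 higher genes with an entry, and in 3.97% of 32851 promoters. The motif is in capitals, forward in Asns (chr6:7693160-7693459, minus strand) and reversed in Trib3 (chr2:152344011-152344310, minus strand).
Asns: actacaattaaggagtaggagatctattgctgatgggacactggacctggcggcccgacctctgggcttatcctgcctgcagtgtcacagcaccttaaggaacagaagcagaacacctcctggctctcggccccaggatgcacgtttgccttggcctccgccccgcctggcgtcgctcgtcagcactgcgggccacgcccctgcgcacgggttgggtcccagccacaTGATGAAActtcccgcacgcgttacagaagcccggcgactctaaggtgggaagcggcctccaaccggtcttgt
Trib3: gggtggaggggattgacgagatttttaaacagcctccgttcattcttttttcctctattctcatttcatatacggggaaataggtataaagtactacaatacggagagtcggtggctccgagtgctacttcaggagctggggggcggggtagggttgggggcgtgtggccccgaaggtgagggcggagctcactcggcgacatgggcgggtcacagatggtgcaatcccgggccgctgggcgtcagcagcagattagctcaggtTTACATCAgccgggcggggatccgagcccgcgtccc

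The match in Asns began 23 bases before the start site and that in Trib3 14 bases after it. A match is a description of the letters and not of binding. Trib3 was named after its values were seen.

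Most signalling and immune lists held more lower than higher genes. Over all 12352 genes counted, 28.9% were higher and 33.2% lower, and counts near those shares say little about a list. Of 24 STAT3 target genes, 13 were lower and 2 higher, with a median of -0.24: Pim1, a survival kinase, averaged 124 ± 18.2 CPM in low-Cpa3 and 312 ± 31.3 CPM in strong-Cpa3 cells (log2 difference -1.35 ± 0.085, adjusted p = 3.9e-06). Stat3 itself averaged 61.7 ± 3.75 CPM in low-Cpa3 and 77.8 ± 5.50 CPM in strong-Cpa3 cells (log2 difference -0.35 ± 0.046, adjusted p = 2.4e-04). Of 24 TLR9 and NF-kB genes, 12 were lower and 2 higher. Of 49 interferon-induced genes, 21 were lower and 5 higher, and of 18 genes of MHC class I and its loading, 12 were lower and 1 higher, with B2m, the class I light chain, at -0.44. Of 8 MHC class II genes, 2 were higher and 0 lower, but without the cells with other-lineage transcripts 0 of 7 were higher and 3 lower. Of 20 immediate early and heat shock genes, 13 were lower and 3 higher, with Jund at -0.83 and Hsp90aa1 at 0.53. Myeloid differentiation genes had 9 of 32 higher, near the share of all genes, and 5 lower. Without the cells with other-lineage transcripts 0 of 20 were higher and 13 lower.

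**Figure D3:**
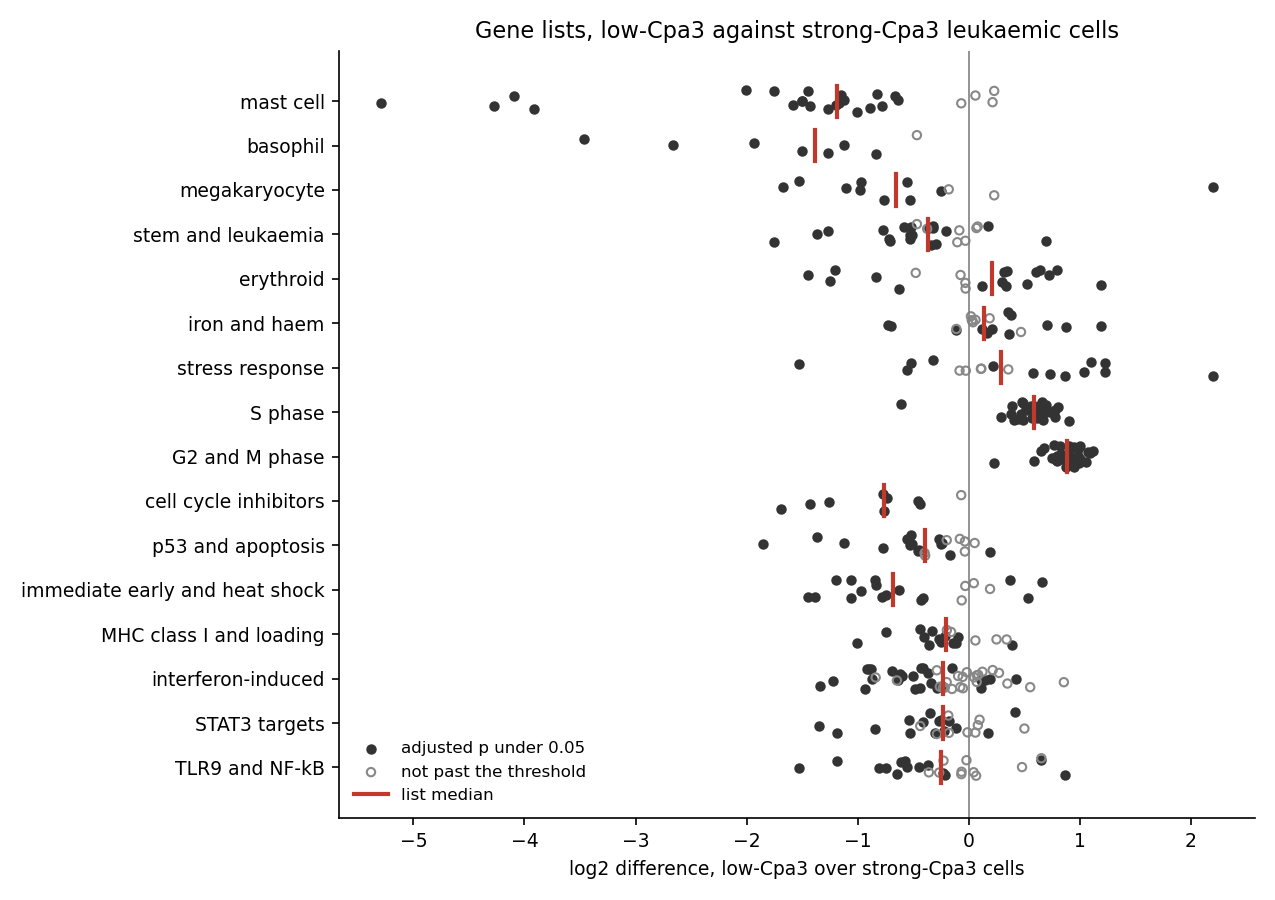
Log2 difference between low-Cpa3 and strong-Cpa3 cells for each gene of 16 lists, 1 point per gene, with the list median in red. Positive values are higher in low-Cpa3 cells; all G2 and M phase genes lie right of 0 and most mast cell, basophil and cell cycle inhibitor genes lie left of it.

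The class difference was also tested in cells of a narrower range of depth, a setting added after the data had been seen. Among cells of both classes with 20000 to 30000 UMIs, 2291 genes were higher and 2394 lower, 27 of 30 G2 and M phase genes and 27 of 30 S phase genes were higher, and 20 of 22 mast cell genes were lower. Depth still differed within that range, with medians of 26680, 27343, 26113.5 and 26181.5 UMIs in the low-Cpa3 cells of Decoy 2, Decoy 3, Decoy 6 and PBS, against 24451.5, 24852, 24240 and 23876 in their strong-Cpa3 cells, and Decoy 3 held 47 low-Cpa3 cells there. In the interferon-induced list of those cells, 0 of 38 genes were higher and 21 lower. Over all cells, Iglc1, an antibody light chain gene, had the largest called increase among genes with a mean of at least 20 CPM (log2 2.46) and rested on 1 cell of Decoy 3, which held 6096 of that library's 7069 Iglc1 UMIs in low-Cpa3 cells. Without the cells with other-lineage transcripts its log2 difference was -0.19.

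Among low-Cpa3 cells, adult globins varied most once cells with other-lineage transcripts were set aside. The genes that marked those cells included none of the red cell list. The measure is the variance over the mean of counts thinned to 5000 UMIs per cell, whose median over all genes was 1.03. Over all low-Cpa3 cells the antibody gene Igkc led with 408, followed by Hbb-bs with 245 and the neutrophil genes S100a9 and S100a8 with 196 and 182. Without the cells with other-lineage transcripts, a setting added after the data had been seen, Hbb-bs had 257, Hbb-bt 136, Hba-a1 109.8 and Hba-a2 84.6. The share of low-Cpa3 cells with a UMI of Hba-a1 was 98.4%, 96.9% and 98.1% in Decoy 2, Decoy 3 and Decoy 6, against 99.1% in PBS. The 1% of cells with most Hba-a1 held a share of its UMIs of 24.96%, 31.9% and 28.3% in Decoy 2, Decoy 3 and Decoy 6, against 23.7% in PBS, so it was found in nearly all cells and was very high in a few. For Hbb-bs that share was 64.3%, 66.8% and 61.3% in Decoy 2, Decoy 3 and Decoy 6, against 62.9% in PBS. The part of red cells or of free globin RNA in this spread was not tested. The other genes among the 20 most variable included Serpinb1a, a protease inhibitor gene (6.18), Car1 (4.51), Tph1, which starts serotonin synthesis (4.504), Furin (3.83) and the histone gene Hist1h2ap (7.41).

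The study compared Decoy with PBS mice. Among leukaemic cells, that is low-Cpa3, strong-Cpa3 and embryonic globin cells, the low-Cpa3 share was 74.6% (95% Clopper-Pearson interval 73.4 to 75.9) in Decoy 2, 68.2% (95% Clopper-Pearson interval 63.2 to 72.8) in Decoy 3 and 61.1% (95% Clopper-Pearson interval 58.5 to 63.6) in Decoy 6, against 71.3% (95% Clopper-Pearson interval 70.6 to 72.1) in PBS. Decoy libraries lay on both sides of PBS, with a mean of 68.0% ± 6.78 (SD, n = 3) and a difference of -3.38 percentage points. The two-sided exact permutation test over libraries gave p = 0.75, where 0.25 is the smallest this design allows, and without Decoy 6 the difference was 0.063 points. Of all kept cells, low-Cpa3 cells were 57.1%, 13.3%, 0% and 26.5% in Decoy 2, Decoy 3, Decoy 5 and Decoy 6, against 59.95% in PBS. These 4 Decoy values were all below PBS, by 35.7 points at the mean, with exact permutation p = 0.4 where 0.2 is the smallest possible. Without Decoy 5 the difference was -27.6 points. Once cells with other-lineage markers were left out, low-Cpa3 cells were 65.0%, 45.0%, 0% and 50.7% of the cells left in Decoy 2, Decoy 3, Decoy 5 and Decoy 6, against 63.3% in PBS, so Decoy 2 lay above PBS and the difference was -23.1 points (exact permutation p = 0.6). The sort for GFP and c-Kit and the cells it let through can set this share, and the intervals cover counting error only.

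Over all low-Cpa3 cells, no gene passed the threshold between Decoy and PBS. edgeR's quasi-likelihood test called 0 of 14494 genes (0.0%) at an adjusted p under 0.05, and 855 had an unadjusted p under 0.05. The spread was estimated from the 3 Decoy libraries, since PBS is a single library assumed to vary as they do. DESeq2 called 301 genes, 278 higher and 23 lower, and without Decoy 2 edgeR called 1194, 1094 higher and 100 lower. Interferon-induced genes had a median log2 difference of 0.86, with 48 of 50 positive, beside 0.00064 for all genes, none of them called. B cell, neutrophil and macrophage markers had medians of 2.21, 3.16 and 4.78 in the same comparison, and all 3 of these lists were higher in the low-Cpa3 barcodes of Decoy 3 and Decoy 6 than in those of Decoy 2 and PBS.

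The same test was therefore also read without the cells that held at least 3 UMIs of other-lineage genes, a processing alternative whose named genes were picked after its values had been seen. It called 158 of 13837 genes (1.14%), 137 higher (0.99%) and 21 lower (0.152%), leaving out the exclusion markers, so these calls depend on that choice of cells. Of the 158, 140 were also called in all low-Cpa3 cells without Decoy 2, among 1174 calls, and 111 in all low-Cpa3 cells by DESeq2, among 296 calls. These totals leave out the exclusion markers too. In every edgeR setting that kept both Decoy 2 and the cells with those markers, 0 of the 158 were called. All settings drew on the same libraries. Without the cells with any UMI of those markers, a setting added after the data had been seen, 245 genes were called and 149 of the 158 were among them.

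In those cells, interferon-induced genes were the list with most calls and also the longest list. Of 48 tested, 12 were higher and 1 lower, with a median log2 difference of 0.57 beside 0.0053 for all genes. Shorter lists of other-lineage markers were called at higher shares. Of those left in the test, 2 of 4 neutrophil, 2 of 7 macrophage and monocyte, 2 of 5 B cell and 2 of 5 plasma cell markers were higher. Ifitm3, a membrane protein that restricts viral entry (chr7:141009586-141010770, minus strand), had 113, 162 and 179 CPM in Decoy 2, Decoy 3 and Decoy 6, against 47.9 CPM in PBS (log2 difference 1.65 ± 0.20, adjusted p = 0.0017). Irf7, the transcription factor that amplifies type I interferon, had 6.88, 12.4 and 7.72 CPM in Decoy 2, Decoy 3 and Decoy 6, against 2.495 CPM in PBS (log2 difference 1.73 ± 0.25, adjusted p = 0.0041). Oas3, a sensor of double-stranded RNA, had 1.67, 3.93 and 2.57 CPM in Decoy 2, Decoy 3 and Decoy 6, against 0.592 CPM in PBS (log2 difference 2.01 ± 0.40, adjusted p = 0.025). All 3 Decoy libraries lay above PBS for each of these genes, which were picked after their values had been seen. Lgals3bp and Ifi27l2a were higher by log2 2.52 and 2.07, and Psme1, a proteasome activator subunit, had 351, 368 and 362 CPM in Decoy 2, Decoy 3 and Decoy 6, against 243 CPM in PBS (log2 difference 0.57 ± 0.11, adjusted p = 0.021). Of 18 genes of MHC class I and its loading, B2m was called, with 351, 402 and 445 CPM in Decoy 2, Decoy 3 and Decoy 6, against 255 CPM in PBS (log2 difference 0.65 ± 0.13, adjusted p = 0.033), and of 18 interferon-gamma GTPase genes, Tgtp2 (1.74) and Irgm1 (0.85) were higher. Irf7, Oas3 and Psme1 were named after their values were seen.

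The promoters of Ifitm3 and Oas3 are shown because they held GAAA, any 2 bases and a second GAAA, a core of the interferon-stimulated response element. It was searched on both strands, and overlapping matches were counted. The motif was found in 3 of the 8 higher interferon-induced genes with a RefSeq entry (GRCm38.p6), Psme1 being the other, and in 3.44% of 32851 promoters. Ifitm3 (chr7:141010695-141010994, minus strand) held 2 matches, the first beginning 2 bases after the start base, and Oas3 (chr5:120777610-120777909, minus strand) held 1, beginning 75 bases before it; matches are in capitals.
Ifitm3: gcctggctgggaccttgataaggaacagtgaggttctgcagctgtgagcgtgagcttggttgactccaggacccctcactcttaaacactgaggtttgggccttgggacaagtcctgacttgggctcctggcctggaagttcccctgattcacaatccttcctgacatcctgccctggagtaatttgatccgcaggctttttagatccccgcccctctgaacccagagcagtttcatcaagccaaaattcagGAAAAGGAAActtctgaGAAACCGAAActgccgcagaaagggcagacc
Oas3: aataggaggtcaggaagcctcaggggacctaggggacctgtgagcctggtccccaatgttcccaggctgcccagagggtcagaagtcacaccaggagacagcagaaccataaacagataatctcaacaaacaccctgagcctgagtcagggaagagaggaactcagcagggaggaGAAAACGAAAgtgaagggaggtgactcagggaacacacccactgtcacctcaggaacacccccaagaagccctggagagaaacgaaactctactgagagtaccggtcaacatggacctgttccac

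Ifitm3, Irf7, B2m and Psme1 also stood higher in the Decoy libraries than in PBS in the other kept cells, where no test was run. There Ifitm3 had 2229.8, 1433 and 1669.5 UPM in Decoy 2, Decoy 3 and Decoy 6, against 1295 in PBS. Irf7 had 93.6, 119 and 147 UPM in Decoy 2, Decoy 3 and Decoy 6, against 65.6 in PBS, and Psme1 had 657, 628 and 603 UPM in Decoy 2, Decoy 3 and Decoy 6, against 308 in PBS. B2m had 2446.5, 2902 and 2912 UPM in Decoy 2, Decoy 3 and Decoy 6, against 1499.8 in PBS. For these 4 genes the levels in those cells were above the levels in low-Cpa3 cells without other-lineage markers in every library. Among low-Cpa3 cells thinned to 5000 UMIs, the share with an Ifitm3 UMI was 35.4%, 44.8% and 52.3% in Decoy 2, Decoy 3 and Decoy 6, against 18.9% in PBS, and unthinned it was 82.4%, 85.3% and 86.4% in Decoy 2, Decoy 3 and Decoy 6, against 63.6% in PBS. Among the other kept cells, thinned alike, it was 68.2%, 66.8% and 68.6% in Decoy 2, Decoy 3 and Decoy 6, against 36.8% in PBS. The other kept cells of PBS differed in kind, with 463, 926 and 2571 UPM of the adult globin gene Hbb-bs in Decoy 2, Decoy 3 and Decoy 6, against 121781 in PBS. In low-Cpa3 cells without other-lineage markers, S100a8, a neutrophil gene, still had 35.5, 17.8 and 18.9 UPM in Decoy 2, Decoy 3 and Decoy 6, against 6.75 in PBS, and in the other kept cells it had 38544, 7714 and 12015 UPM in Decoy 2, Decoy 3 and Decoy 6, against 15479 in PBS. Of 26 myeloid differentiation genes left in that test, 5 were higher and 0 lower. The 5 included S100a8, S100a9, Lyz2 and Ly6c2, already counted above as neutrophil or as macrophage and monocyte markers. The part of free RNA or of other cells in the interferon genes was not tested.

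Other higher genes included Ndufb1-ps, Cox7a1, Pet100 and Rps27. Ndufb1-ps, annotated as a long non-coding RNA from a bidirectional promoter, had 720.4, 649 and 567 CPM in Decoy 2, Decoy 3 and Decoy 6, against 312 CPM in PBS (log2 difference 1.05 ± 0.14, adjusted p = 0.0026). Cox7a1, a subunit of complex IV, had 37.4, 32.8 and 32.4 CPM in Decoy 2, Decoy 3 and Decoy 6, against 15.4 CPM in PBS (log2 difference 1.17 ± 0.14, adjusted p = 0.0016), and Pet100, an assembly factor of complex IV, differed by 1.08. The ribosomal protein gene Rps27, named after its values were seen, had 3545, 3387 and 3022 CPM in Decoy 2, Decoy 3 and Decoy 6, against 1689 CPM in PBS (log2 difference 0.97 ± 0.13, adjusted p = 0.0031). Decoy and PBS did not overlap for these genes, as the ranking that picked Ndufb1-ps, Cox7a1 and Pet100 required. In the other kept cells Rps27 had 2988, 2892 and 2737 UPM in Decoy 2, Decoy 3 and Decoy 6, against 1649.5 in PBS, and Ndufb1-ps had 839.9, 709 and 612 UPM in Decoy 2, Decoy 3 and Decoy 6, against 257 in PBS. The 137 higher genes had a median exon length of 1611 bases and the 21 lower genes 2763, against 3958.5 for all genes tested; the part of transcript length in these calls was not tested.

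Lower genes in Decoy were fewer. Tfrc (chr16:32608920-32632794, plus strand), the transferrin receptor, had 52.8, 50.5 and 53.7 CPM in Decoy 2, Decoy 3 and Decoy 6, against 86.7 CPM in PBS (log2 difference -0.72 ± 0.10, adjusted p = 0.0026), and the 3 Decoy values lay close together. Among low-Cpa3 cells thinned to 5000 UMIs, the share with a Tfrc UMI was 20.9%, 19.0% and 21.8% in Decoy 2, Decoy 3 and Decoy 6, against 32.7% in PBS. Erh, a conserved nuclear protein gene, had 183, 165 and 168 CPM in Decoy 2, Decoy 3 and Decoy 6, against 277 CPM in PBS (log2 difference -0.68 ± 0.10, adjusted p = 0.0053). Gstp1, a glutathione transferase, had 30.2, 25.1 and 24.2 CPM in Decoy 2, Decoy 3 and Decoy 6, against 49.1 CPM in PBS (log2 difference -0.87 ± 0.13, adjusted p = 0.0052). Among the other largest falls were Redrum, Iqgap2 and Clint1, with log2 differences between -0.52 for Enah, an actin regulator, and -0.62 for Spp1, which encodes osteopontin.

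Slc4a1, Apol11b and Rsad2 had far fewer UMIs in the Decoy libraries, and those in PBS came from a small share of its cells. In low-Cpa3 cells without other-lineage markers, Slc4a1, the anion exchanger of the red cell membrane, had 40, 1 and 19 UMIs in Decoy 2, Decoy 3 and Decoy 6, against 1443 in PBS (log2 difference -3.04 ± 0.38, adjusted p = 0.002). Apol11b had 4, 0 and 4 UMIs in Decoy 2, Decoy 3 and Decoy 6, against 1804 in PBS. Rsad2, the 1 lower gene of the interferon-induced list, had 23, 7 and 1 UMIs in Decoy 2, Decoy 3 and Decoy 6, against 1310 in PBS. All 3 genes were called lower. The share of low-Cpa3 cells with an Slc4a1 UMI was 0.980%, 1.16% and 1.53% in Decoy 2, Decoy 3 and Decoy 6, against 4.84% in PBS, and among the other kept cells it was 0.876%, 2.47% and 3.08% in Decoy 2, Decoy 3 and Decoy 6, against 49.8% in PBS. The 1% of PBS low-Cpa3 cells with most Slc4a1 held 71.1% of its UMIs. Of 476 PBS low-Cpa3 cells with an Apol11b UMI, 28.6% also had a Rsad2 UMI, against 1.54% of those without. The level of Hbb-bs in the other kept cells was highest in PBS, as given above. In low-Cpa3 cells without other-lineage markers, Hbb-bs had 375, 1180 and 639 UPM in Decoy 2, Decoy 3 and Decoy 6, against 706 in PBS, and Hba-a1 had 1055, 2188 and 1564 UPM in Decoy 2, Decoy 3 and Decoy 6, against 724 in PBS. The part of red cell transcripts in these differences was not tested. Apol11b was named after its values were seen.

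Some genes of B and plasma cells were also higher in Decoy in low-Cpa3 cells without other-lineage markers, with 2 of 5 B cell and 2 of 5 plasma cell markers left in the test called higher and 0 lower. Igkc, an antibody light chain gene, was higher by log2 4.36. The heavy chain genes Ighm and Ighg2c were higher by log2 4.11 and 3.77, and Igha was called higher with 1.05, 3.18 and 2.52 CPM in Decoy 2, Decoy 3 and Decoy 6, against 0.0027 CPM in PBS. Ly6c2, a gene of monocytes, and Ctss, a protease of antigen-presenting cells, were higher by log2 3.15 and 2.65. The share of low-Cpa3 cells with an Igkc UMI was 61.3%, 92.3% and 85.3% in Decoy 2, Decoy 3 and Decoy 6, against 11.7% in PBS. Among the other kept cells that share was 56.2%, 92.2% and 83.7% in Decoy 2, Decoy 3 and Decoy 6, against 24.6% in PBS, at lower depth per cell, with medians of 13199, 17054 and 12942 UMIs in Decoy 2, Decoy 3 and Decoy 6, against 5329 in PBS. Thinned to 5000 UMIs per cell, the Igkc share of low-Cpa3 cells was 12.8%, 47.2% and 29.9% in Decoy 2, Decoy 3 and Decoy 6, against 2.19% in PBS, and that of the other kept cells was 36.8%, 70.1% and 61.3% in Decoy 2, Decoy 3 and Decoy 6, against 12.1% in PBS. At equal depth the other kept cells thus had the higher Igkc share in every library. The part of free RNA in these genes was not tested. Snhg9, a host gene of small nucleolar RNA, Pdzk1ip1 and the unnamed gene B930036N10Rik were higher by log2 1.14, 1.16 and 1.55.

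Lists named for the agent's targets held no call in low-Cpa3 cells without other-lineage markers. Of 22 STAT3 target genes, 0 were called, with a median log2 difference of 0.078, and of 22 TLR9 and NF-kB genes 0 were called, with a median of 0.18. Stat3 had 58.0, 63.1 and 55.5 CPM in Decoy 2, Decoy 3 and Decoy 6, against 61.5 CPM in PBS (log2 difference -0.07 ± 0.10, adjusted p = 0.93). Tlr9, the receptor for the CpG part, had 0, 0 and 0 UMIs in those cells of Decoy 2, Decoy 3 and Decoy 6, against 1 in PBS. No gene was called among 30 S phase, 30 G2 and M phase or 28 mast cell genes. Over all 13837 genes of that test only 1.14% were called, so 0 calls in lists this short is no result about any of them. A p that misses the threshold does not show that these levels were equal. The rule's own mast cell genes are among the 28, and the rule limits their levels alike in Decoy and PBS. Their lack of a call is therefore no result about Decoy.

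**Figure D4:**
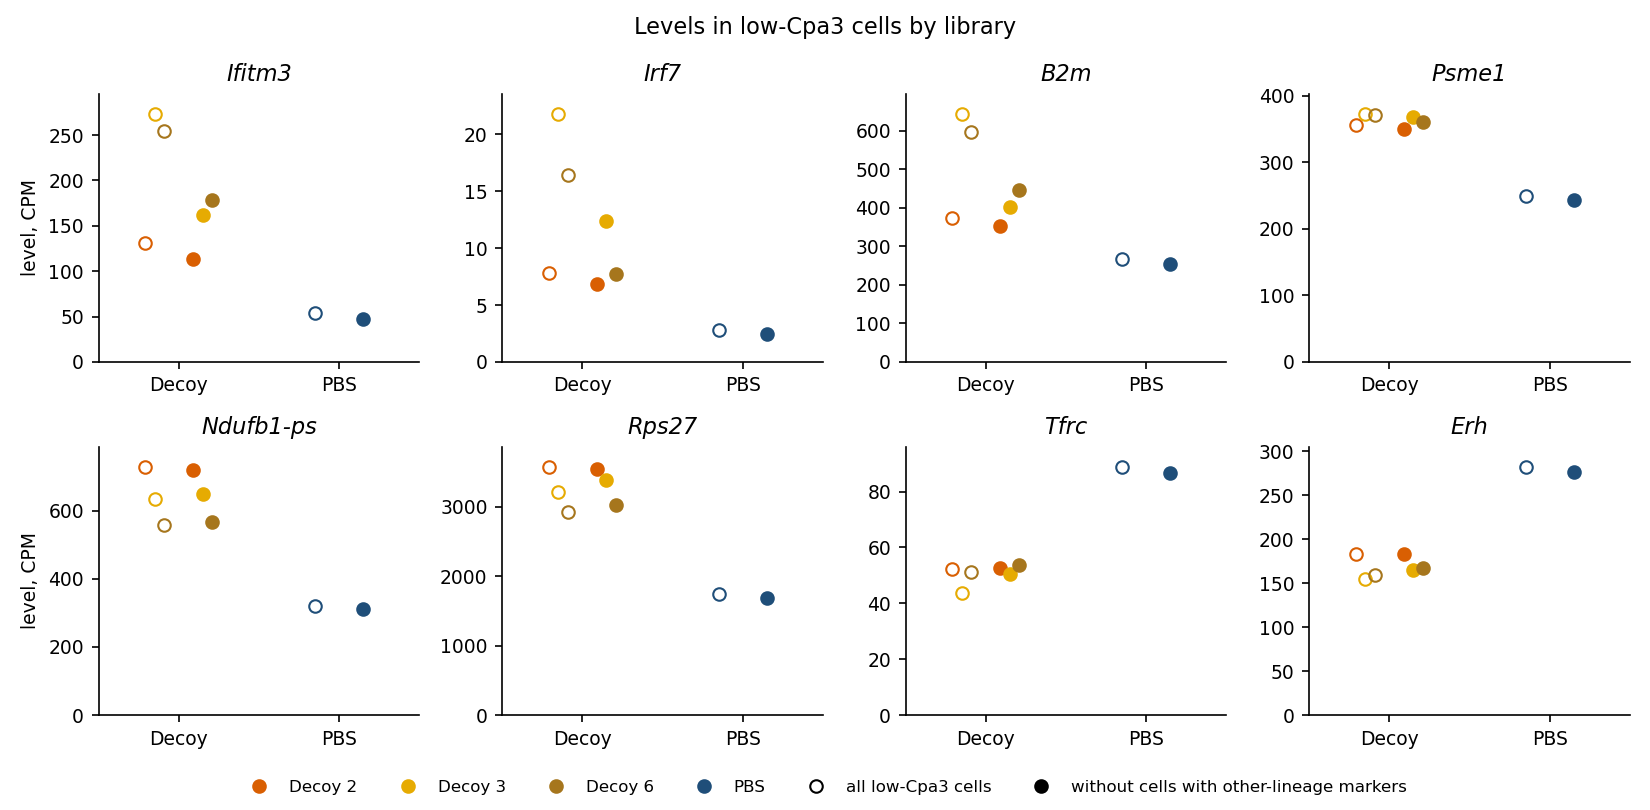
CPM of 8 genes in low-Cpa3 cells, 1 point per library, Decoy left of PBS; open points are all low-Cpa3 cells and filled points are those without other-lineage markers. Filled points of Ifitm3, Irf7, B2m, Psme1, Ndufb1-ps and Rps27 lie above PBS in all 3 Decoy libraries, and those of Tfrc and Erh below it. These 8 genes were picked after their values had been seen.

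Whether Decoy acted differently on low-Cpa3 and strong-Cpa3 cells was asked with an interaction term over 13605 genes, which called 1 gene (0.00735%), lower, with 209 at an unadjusted p under 0.05. The gene was Ighg2c, an antibody heavy chain constant region (chr12:113285325-113288932, minus strand). It had 4.60, 155 and 108 CPM in low-Cpa3 cells of Decoy 2, Decoy 3 and Decoy 6, against 26.4 CPM in PBS, and 6.81, 588 and 137 CPM in strong-Cpa3 cells of the same Decoy libraries, against 0.980 CPM in PBS (difference of log2 differences -5.73 ± 0.56, adjusted p = 0.02). In PBS, the 1% of low-Cpa3 cells with most Ighg2c held 98.1% of its UMIs and 1 cell held 3829 of 11056. Without the cells with other-lineage markers, a setting added after the data had been seen, the value for Ighg2c was 0.24. In strong-Cpa3 cells alone, 0 of 12796 genes (0.0%) were called between Decoy and PBS, with 1058 at an unadjusted p under 0.05.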

How the data were processed

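The deposited matrices held counts, whole numbers of UMIs per gene and barcode with no normalization by the authors; per the file headers they were written by Cell Ranger 5.0.0. Per the submitters' processing notes, Cell Ranger 3.1, Seurat 4, DESeq2 and the mm10 build were used, with no role given in the sources used here. Each library was 1 replicate, and the counts of low-Cpa3 cells were summed per library where at least 50 were present. After filterByExpr and TMM scaling, genes were tested two-sided with the quasi-likelihood test of edgeR 4.0.16 (limma 3.58.1, R 4.3.3), which gives log2 differences with standard errors after ±; an adjusted p under 0.05 is a call. DESeq2 1.42.0 was an alternative. CPM were computed from the counts with TMM scaling within each comparison, so a gene's level differs slightly between comparisons; UPM were scaled by the class total alone. Shares were compared by exact permutation in SciPy 1.17.1 (NumPy 2.4.6, Python 3.11.15; figures with matplotlib 3.10.9). Libraries pair low-Cpa3 with strong-Cpa3 cells because both came from the same library, and the library was the block.

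Other-lineage cells were barcodes with 3 or more UMIs over a fixed list of markers of B, T, NK, plasma, plasmacytoid dendritic and myeloid cells, which also held the Y-linked genes Ddx3y, Eif2s3y, Kdm5d and Uty. Doublets were not called; leaving out those barcodes, or the 5% of low-Cpa3 cells with most UMIs, stood in for it. Genes of the rule entered no count between low-Cpa3 and strong-Cpa3 cells. Genes were named from a fixed set, in each direction the 8 called genes that changed most at 20 CPM or more in every library alike, and at most 4 called genes per list; the 20 most variable genes were ranked at a mean of at least 0.05 UMIs. The members, lists and rules were chosen with earlier results of these data known. Scripts were tested on simulated data. Gene positions are from GENCODE vM21 of the same build, where 99.6% of the 32285 genes matched by identifier. Ahsp, Aldoa, Ddit3 and Mcpt5 were not analysed here. Some genes of the fixed set and of those called are not reported here.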

Additional observations from a re-analysis of the deposited data

Results flagged for a closer look

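Ighg2c, an antibody heavy chain gene, differed in its Decoy effect between low-Cpa3 and strong-Cpa3 cells by the interaction test, with a difference of log2 differences of -5.73 (edgeR's quasi-likelihood test, adjusted p = 0.02). It stood at 4.60, 155 and 108 CPM in low-Cpa3 cells of Decoy 2, Decoy 3 and Decoy 6, against 26.4 CPM in PBS, and at 6.81, 588 and 137 CPM in strong-Cpa3 cells of those Decoy libraries, against 0.980 CPM in PBS. Single cells held 1369 of 1593 Ighg2c UMIs in Decoy 3, 2674 of 3175 in Decoy 6 and 3829 of 11056 in PBS. Without the cells with other-lineage markers the PBS count was 281 and the difference was 0.24.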

How the results depend on the processing

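Low-Cpa3 against strong-Cpa3 cells gave 7670 called genes, and 5915 to 8151 with each library left out. It gave 4905 with no replicate block and 4685 among cells of 20000 to 30000 UMIs. Decoy against PBS gave 0 calls, 301 with DESeq2, 162 without cells with other-lineage markers (158 leaving out those markers) and 245 without cells with any such UMI; leaving out Decoy libraries gave 0 to 1194, the 1194 without Decoy 2. No paired analysis was possible because the Decoy and PBS libraries share no replicate numbers and PBS is 1 library. The interaction gave 1 call, 2 with size factors of DESeq2, 14 without cells with other-lineage markers and 5 to 172 with a Decoy library left out, 172 of them without Decoy 2. The low-Cpa3 share of leukaemic cells differed by -3.38 points, and by -6.71 to 0.063 with a Decoy library left out. Values that changed sign were Gata1 between the classes (-0.051 to 0.027 with a library left out and 0.033 at 20000 to 30000 UMIs), Stat3 between Decoy and PBS (-0.081 to 0.0052 with a Decoy library left out), Prtn3 among cells of 20000 to 30000 UMIs (-0.14), Ighg2c between Decoy and PBS without the 5% of cells with most UMIs (-0.52) and, without cells with other-lineage markers, Iglc1 (-0.19), Ctsg (-0.71) and Prtn3 (-0.018) between the classes and Ighg2c in the interaction (0.24). The cause of these changes was not tested. Size factors of DESeq2 shifted the median of all genes between the classes by under 0.1. The 259 low-Cpa3 cells of Decoy 3 and the single PBS library limit the precision of the Decoy comparison.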
